A study of Mus musculus with 8 samples.

Results

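The Hsd3b family was followed in embryonic mouse hearts with reduced Isl1, in tissue that holds the outflow tract (OFT) and right ventricle (RV). Members were the rows whose gene symbol is Hsd3b followed by 1 digit, which gave 7 genes (Hsd3b1 to Hsd3b7) among 20701 and 14 transcript rows among 31507. The family was chosen on the rise of Hsd3b6 between these same groups, so the values of its members are given as a description, with no test. The 8 libraries came from single embryos at E10.5, labelled C57BL/6, of which 4 were wild type (CTRL) and 4 were Isl1 hypomorphs (Isl1_hypo, Isl1-f;neo/f;neo as the study names them). The hypomorphic allele is carried by every cell of the embryo and leaves some Isl1 transcript. Isl1, the LIM-homeodomain factor of second heart field progenitors, fell from 47.2 ± 13.3 to 9.67 ± 2.83 CPM (SD, n = 4; log2 fold change −2.29, SE 0.256, adjusted p = 0.0077 in the edgeR quasi-likelihood test). The fold was nearly the same with the globin level as a covariate or with a replicate block, but did not pass the test there (adjusted p = 0.519 and 0.0722). CPM is the usual depth-scaled count, here with library totals scaled by TMM. The 4 CTRL libraries held between 29748458 and 46678973 counts and the 4 Isl1_hypo libraries between 18422245 and 33050298, so 1 to 3 counts in a library are at or under its detection floor of 0.0641 to 0.163 CPM. Cardiomyocyte genes were abundant throughout, with a summed level of 35911 to 43526 CPM for 7 markers in CTRL and 41194 to 49225 CPM in Isl1_hypo.

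Enzymes of this family are 3β-hydroxysteroid dehydrogenases. The steroidogenic forms oxidise the hydroxyl group of precursors such as pregnenolone and move a double bond, a step that progesterone, glucocorticoids, mineralocorticoids and androgens all pass through. In the mouse, Hsd3b1 is the main form of gonads and adrenal cortex, and Hsd3b6 is known from the outer adrenal cortex and from trophoblast giant cells of the placenta. Hsd3b2 and Hsd3b3 are known from kidney and liver, and Hsd3b4 and Hsd3b5 act mainly as ketosteroid reductases. Hsd3b7 works on cholesterol-derived sterols early in bile acid synthesis.

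In mm9 the 6 genes Hsd3b1 to Hsd3b6 lie on the minus strand of chromosome 3. Hsd3b4 is at chr3:98302998-98313958, Hsd3b5 at chr3:98422559-98434232, Hsd3b2 at chr3:98513178-98528499 and Hsd3b3 at chr3:98545399-98567051. Hsd3b6 follows at chr3:98609427-98618366 and Hsd3b1 at chr3:98656117-98663717, 46.0 kb from it. Hsd3b7 stands alone on the plus strand of chromosome 7, at chr7:134929122-134947316. No annotated exon of the chromosome 3 members overlapped another gene, whereas 2 of the Hsd3b7 isoforms in GENCODE (not the one used below) overlap exons of Setd1a on the same strand. The family is therefore a cluster of close copies plus 1 distant relative, and how far reads can tell the copies apart bears on every count.

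The coding sequences of the 6 clustered genes are each 1122 bases long, and all members were compared by global alignment with gaps allowed. Hsd3b6 was 94.5% identical to Hsd3b3, 94.4% to Hsd3b2 and 90.0% to Hsd3b1. Identity was lower with Hsd3b4 (81.3%) and Hsd3b5 (80.7%), and 52.5% with Hsd3b7. The translated proteins showed the same order, with 91.2% identity of Hsd3b6 to Hsd3b2 and to Hsd3b3, 83.9% to Hsd3b1, 73.5% to Hsd3b4, 72.7% to Hsd3b5 and 35.9% to Hsd3b7. Hsd3b6 and Hsd3b1, the only members of the cluster with more than 40 counts over all libraries, thus differed at about 1 coding base in 10.

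To show how reads of 100 bases could differ, the most alike and the most different stretches of that length between Hsd3b6 and Hsd3b1 are printed from the NCBIM37 (mm9) reference, read 5′ to 3′ on the minus strand, with capitals for bases that differ from Hsd3b6. Of 822 stretches that lie within a coding exon, the pair differed at 3 to 18 bases, with a median of 9. The most alike stretch is bases 204 to 303 of the coding sequence, in coding exon 2 of 3. It lies at chr3:98611695-98611794 in Hsd3b6, chr3:98659924-98660023 in Hsd3b1, chr3:98517358-98517457 in Hsd3b2 and chr3:98307690-98307789 in Hsd3b4. Hsd3b3 has the same letters as Hsd3b2 here, and Hsd3b5 the same as Hsd3b4.
Hsd3b6: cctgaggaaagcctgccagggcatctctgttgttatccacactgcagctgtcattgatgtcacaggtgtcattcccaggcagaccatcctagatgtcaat
Hsd3b1: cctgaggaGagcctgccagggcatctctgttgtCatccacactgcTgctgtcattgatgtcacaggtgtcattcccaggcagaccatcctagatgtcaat
Hsd3b2: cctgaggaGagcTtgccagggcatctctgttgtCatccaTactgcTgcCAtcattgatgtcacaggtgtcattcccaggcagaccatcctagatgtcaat
Hsd3b4: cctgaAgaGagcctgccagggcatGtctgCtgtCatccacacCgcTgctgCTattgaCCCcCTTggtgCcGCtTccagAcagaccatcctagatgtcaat
Hsd3b1 differed at 3 bases, Hsd3b2 at 7 and Hsd3b4 at 20, and the right part of the stretch is the same in Hsd3b6, Hsd3b1 and Hsd3b2.

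The most different stretch is bases 19 to 118 of the coding sequence, in coding exon 1. It lies at chr3:98614852-98614951 in Hsd3b6, chr3:98661770-98661869 in Hsd3b1, chr3:98520366-98520465 in Hsd3b2 and chr3:98557261-98557360 in Hsd3b3.
Hsd3b6: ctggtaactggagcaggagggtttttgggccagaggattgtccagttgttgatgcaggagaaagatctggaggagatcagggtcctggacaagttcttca
Hsd3b1: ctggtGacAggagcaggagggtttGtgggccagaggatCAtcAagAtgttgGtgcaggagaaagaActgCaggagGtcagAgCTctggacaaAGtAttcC
Hsd3b2: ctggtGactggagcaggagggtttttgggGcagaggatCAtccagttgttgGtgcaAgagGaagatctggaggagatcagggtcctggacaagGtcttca
Hsd3b3: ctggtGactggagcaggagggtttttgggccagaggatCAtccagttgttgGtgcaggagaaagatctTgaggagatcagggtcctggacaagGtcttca
Here Hsd3b1 differed from Hsd3b6 at 18 bases, Hsd3b2 at 8 and Hsd3b3 at 6.

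Sharing was then counted over whole transcripts as the share of 50-base windows found unchanged elsewhere. Of 1753 windows of the Hsd3b6 transcript, 280 (16.0%) were found in at least 1 other member, most of them in Hsd3b2 (237 windows) or Hsd3b3 (220), with 38 in Hsd3b1, 35 in Hsd3b4, 7 in Hsd3b5 and none in Hsd3b7. With 100-base windows the share was 3.29%, and none was shared with Hsd3b1. The longest run that Hsd3b6 had in common with Hsd3b3 was 155 bases, with Hsd3b2 147 bases, with Hsd3b1 72 bases and with Hsd3b7 10 bases. In the mm9 genome, 15.8% of the Hsd3b6 windows that lie within an exon occurred at more than 1 place. The same share was 8.59% for Hsd3b1, 25.6% for Hsd3b2, 29.5% for Hsd3b3 and 19.4% for Hsd3b5.

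Hsd3b4 stood apart, because all 1428 of its windows within an exon occurred at more than 1 place in the genome. Of its 1522 transcript windows, 1499 were also in Gm10681 and 1274 in Gm4450, which are annotated in the same cluster. No window of Hsd3b7 or Isl1 occurred at a further place. How reads that align to several places were counted, and the read length, are not given in the sources used here.

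**Figure D1:**
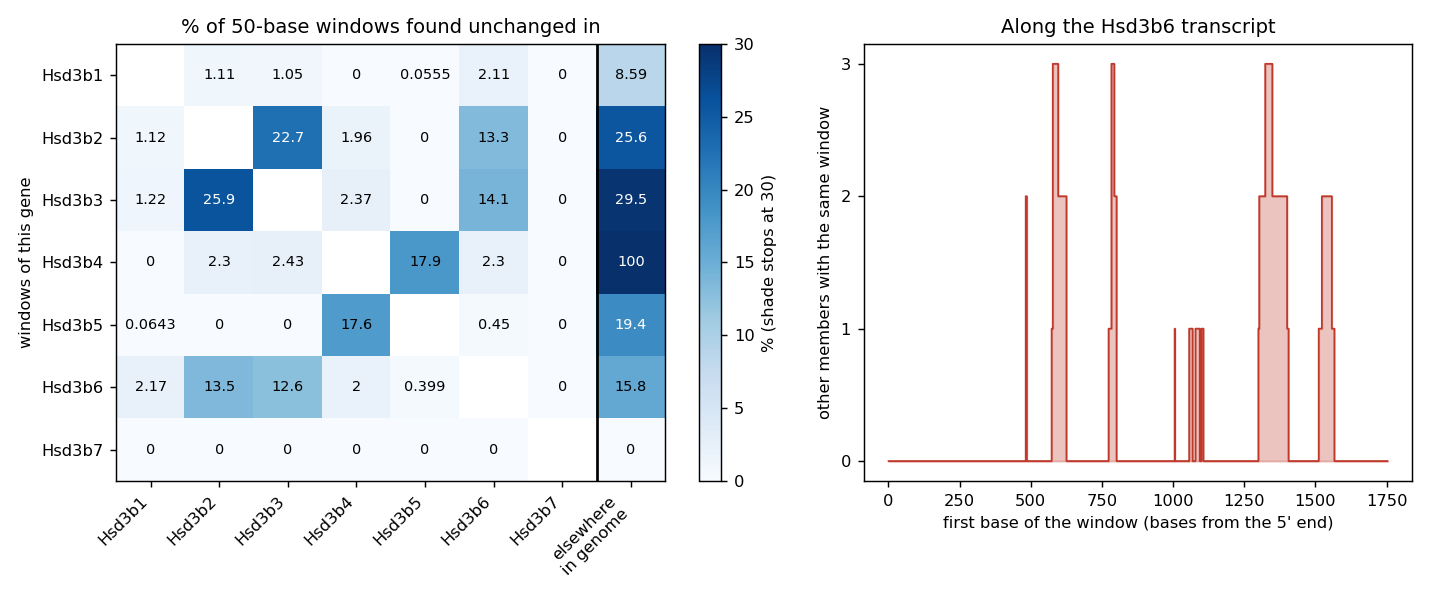
Left, the percent of 50-base windows of each Hsd3b transcript (rows) found unchanged in each other member (columns), with the percent of windows within an exon that occur at more than 1 place of the genome in the last column, where Hsd3b4 reaches 100. Right, how many other members hold each 50-base window of the Hsd3b6 transcript, by the window's first base from the 5′ end, with 280 of 1753 windows above 0.

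Among the members, Hsd3b6 was the gene with the clear difference in level. The CTRL embryos had raw counts of 64, 110, 174 and 198, and the hypomorphs had 251, 427, 406 and 350, each in the order of the replicate numbers. All 4 Isl1_hypo libraries were above all 4 CTRL libraries, although they were sequenced less deeply on the whole. Scaled for depth these are 2.05, 2.71, 4.32 and 4.23 CPM in CTRL and 13.6, 16.0, 12.8 and 12.1 CPM in Isl1_hypo. The means were 3.33 ± 1.13 CPM in CTRL and 13.6 ± 1.69 CPM in Isl1_hypo (SD, n = 4), a ratio of 4.10. The fitted log2 fold change was 2.03 (SE 0.260, 95% interval 1.46 to 2.60), the 54th highest of 13769 genes tested. Since the family was chosen on this difference, the interval and the rank only describe it. With the counts of the 6 clustered genes summed into 1, so that reads swapped between the copies cancel, the log2 fold change was 1.75 (SE 0.257).

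Of all genes tested, 8.5% had groups that did not overlap in CPM, 4.06% had them with Isl1_hypo higher, and 0.269% (20 higher and 17 lower) had an adjusted p under 0.05. Of the 3 members that passed the filter on low counts, Hsd3b6 had groups that did not overlap, and Hsd3b1 and Hsd3b7 did not. Since the family was chosen on Hsd3b6 in this contrast, nothing is read from that count. In bulk tissue a larger number of cells that express a gene and more RNA in each of them cannot be told apart.

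Hsd3b7, the bile acid member, was the most abundant of the family. It had 589, 650, 538 and 874 counts in CTRL and 404, 447, 495 and 464 in Isl1_hypo, in the longer of its transcripts, and the other transcript shared nearly all of these reads. Scaled for depth, CTRL held 18.8, 16.0, 13.4 and 18.7 CPM and Isl1_hypo 21.9, 16.8, 15.6 and 16.1 CPM. The groups overlapped, with means of 16.7 ± 2.59 and 17.6 ± 2.93 CPM. The log2 fold change was 0.07 (SE 0.172), and its 95% interval ran from −0.30 to 0.45. Its sign turned without CTRL replicate 3 (−0.02) and without Isl1_hypo replicate 1 (−0.05).

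Hsd3b1, the nearest neighbour of Hsd3b6 and the main steroidogenic form of the gonads, was low. Its longer transcript had 9, 41, 16 and 53 counts in CTRL and 6, 11, 0 and 17 in Isl1_hypo. In CPM these were 0.288, 1.01, 0.397 and 1.13 against 0.326, 0.412, 0 and 0.588. Means were 0.707 ± 0.426 and 0.332 ± 0.246 CPM with overlapping groups. The log2 fold change of −1.10 had an SE of 0.895 and an interval of −3.06 to 0.86. The highest library of each group was replicate 4, and Isl1_hypo replicate 3 had no read in 33050298 counts. Without Isl1_hypo replicate 3 the log2 fold change was −0.67.

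The remaining 4 members were under the filter. Hsd3b2 had 1, 3, 2 and 5 counts in CTRL and 3, 0, 5 and 13 in Isl1_hypo. Hsd3b3 had 0, 9, 2 and 14 counts in CTRL and 1, 1, 8 and 5 in Isl1_hypo in the rows with the most counts. Of its 5 transcript rows, 2 had 40 counts in all and 3 had 22. Hsd3b5 had a single count, in CTRL replicate 4. For Hsd3b2 and Hsd3b3 the groups overlapped, and 13.3% and 14.1% of their windows are also in Hsd3b6.

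Both rows of Hsd3b4 were listed at 0 in all 8 libraries, as was Gm10681, its near copy. No detection floor is given for Hsd3b4, since each of its windows lies at more than 1 place. The table lists 3584 genes at 0 in all libraries, among them Hmgcs1, a cholesterol synthesis gene that most cells use, so a 0 by itself is not read as absence. Hsd3b5, by contrast, has most of its windows to itself, and 1 count in 8 libraries places it under the detection floor of each.

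**Figure D2:**
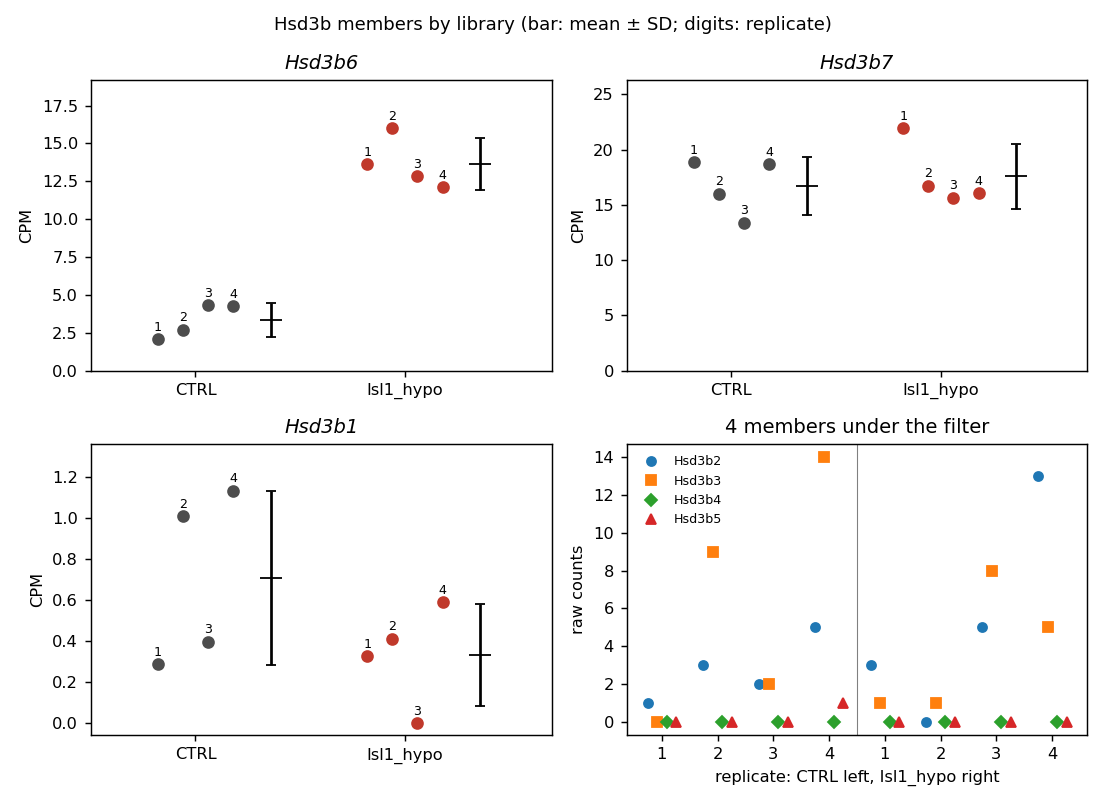
Level of Hsd3b6, Hsd3b7 and Hsd3b1 in each library (points, CPM, with replicate numbers) and the mean ± SD of each group (n = 4), and raw counts of the 4 members under the filter. Hsd3b6 separates the groups (2.05 to 4.32 against 12.1 to 16.0 CPM), while Hsd3b7 and Hsd3b1 overlap.

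Levels of different genes were compared per kilobase of transcript. In CTRL the order was Hsd3b7 (9.22 ± 1.43 CPM per kb), Hsd3b6 (1.85 ± 0.629), Hsd3b1 (0.382 ± 0.230), Hsd3b3 (0.0809 ± 0.0801) and Hsd3b2 (0.0366 ± 0.0181), with Hsd3b2 and Hsd3b3 within each other's spread. In Isl1_hypo the level per kb of Hsd3b7 was 9.70 ± 1.62 and that of Hsd3b6 7.60 ± 0.941. Hsd3b1 stood at 0.179 ± 0.133 there, within the spread of Hsd3b2 at 0.108 ± 0.105. The ratio of Hsd3b6 to Hsd3b7 per kb was 0.110, 0.171, 0.327 and 0.229 in CTRL and 0.628, 0.965, 0.828 and 0.762 in Isl1_hypo. Hsd3b7 was thus the higher of the pair in every library, by a smaller margin in Isl1_hypo. As a share of the family's summed level per kb, Hsd3b6 went from 9.74% to 24.0% across CTRL to 38.0% to 48.5% across Isl1_hypo.

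Within the chromosome 3 cluster, Hsd3b6 supplied most counts of every library. Its share of the cluster's counts was 86.5%, 67.5%, 89.7% and 73.1% in CTRL and 96.2%, 97.3%, 96.9% and 90.9% in Isl1_hypo. Hsd3b1 counts amounted to 14.1%, 37.3%, 9.20% and 26.8% of Hsd3b6 counts in CTRL and to 2.39%, 2.58%, 0% and 4.86% in Isl1_hypo. The difference in this ratio follows in part from Hsd3b6, on which the family was chosen, and Hsd3b1 itself overlapped between the groups. In Isl1_hypo replicate 3, 406 Hsd3b6 counts came with none in Hsd3b1.

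Markers of trophoblast, of adrenal and gonad, and of liver and yolk sac were examined beside Hsd3b6. Of 8 trophoblast markers, Prl3d1, Prl2c2, Prl4a1 and Tpbpa were listed at 0 in all libraries, and the summed level was 16.9 to 26.4 CPM in CTRL and 19.1 to 23.2 CPM in Isl1_hypo, nearly all of it Plac1. The 7 adrenal and gonad markers summed to 4.08 to 7.38 CPM in CTRL and 2.62 to 7.58 CPM in Isl1_hypo, with Nr5a1, the master regulator of steroidogenic cells, and Mc2r, the ACTH receptor, listed at 0. The 8 liver and yolk sac markers summed to 15.7 to 33.1 CPM in CTRL and 23.8 to 48.7 CPM in Isl1_hypo, and most of the sum was Trf, the iron carrier transferrin (20.5 ± 6.93 and 27.2 ± 11.6 CPM). Alb, the albumin gene, had no more than 1 count in any library, Apoa4 no more than 4, Afp, alpha-fetoprotein, no more than 12 and Apoa1 no more than 18. Apob, the main protein of low-density lipoprotein, had 0, 0, 17 and 6 counts in CTRL and 39, 35, 0 and 9 in Isl1_hypo, so that the groups overlapped. These 5 genes did not pass the filter. None of the genes tested in these 3 lists passed an adjusted p of 0.05.

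Blood markers, like Hsd3b6, had higher mean levels in Isl1_hypo. All 9 erythroid markers were higher in Isl1_hypo, 1 of them with an adjusted p under 0.05 (Epb42, 0.0172), beside 0.269% of all genes. Hba-a1 and Hba-a2 had the same counts in every library, so their reads enter the list and the globin share more than once. The marker sum ranged from 2030 to 11920 CPM in CTRL and from 11919 to 25665 CPM in Isl1_hypo. Globin transcripts took 0.212%, 0.273%, 0.464% and 1.19% of all counts in the CTRL embryos and 1.86%, 1.18%, 2.44% and 1.53% in Isl1_hypo. When the globin level entered the fit as a covariate, the Hsd3b6 log2 fold change was 1.58 (SE 0.391). CTRL replicate 4 and Isl1_hypo replicate 2 had nearly equal globin shares (1.19% and 1.18%) and 4.23 and 16.0 CPM of Hsd3b6. With near-identical globin copies counted once, their shares were 1.15% and 1.14%. The part of blood cells in the Hsd3b6 difference was not tested.

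The summed levels of the epithelial and outflow tract lists did not overlap between the groups. The 6 epithelial markers summed to 67.9 to 115 CPM in CTRL and 124 to 302 CPM in Isl1_hypo, and of the 3 tested all were higher, none with an adjusted p under 0.05. Isl1_hypo replicate 1 stood apart, with 708 Cldn6, 282 Cdh1, 181 Epcam and 111 Esrp1 counts against at most 3, 9, 54 and 8 in the other Isl1_hypo libraries, where Krt8 and Krt18 made up nearly all of the sum. Without that library the Hsd3b6 log2 fold change was 2.03 (SE 0.288). Of 6 outflow tract markers 5 were lower, 2 of them with an adjusted p under 0.05, against 0.269% of all genes: Bmp4 and Isl1, the gene that the allele itself reduces. Bmp4 did not pass with the globin or Y-linked covariate, with the replicate block, or without CTRL replicate 3. The sum of the 6 markers ranged from 548 to 651 CPM in CTRL and from 278 to 408 CPM in Isl1_hypo. The part of epithelial and outflow tract cells in the Hsd3b6 difference was not tested. Y-linked transcripts were present in CTRL replicate 3 and in Isl1_hypo replicates 1, 3 and 4, with 4097 to 8766 counts, against 1 to 9 in the other libraries. Hsd3b6 was at 16.0 CPM in the Isl1_hypo library that lacked them and at 4.32 CPM in the CTRL library that had them. The part of embryo sex in the Hsd3b6 difference was not tested.

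**Figure D3:**
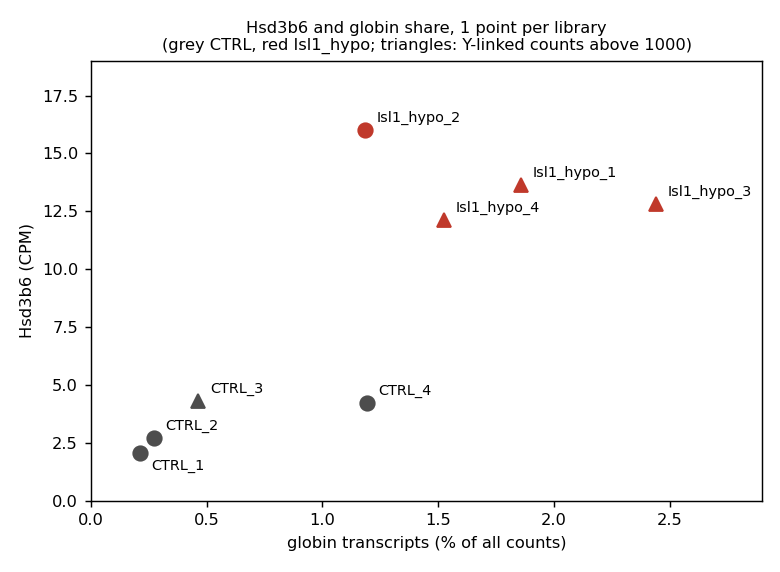
Level of Hsd3b6 (CPM) against the share of globin transcripts (% of all counts), with 1 point per library. Globin shares ran from 0.212% to 1.19% in CTRL and from 1.18% to 2.44% in Isl1_hypo. Hsd3b6 ran from 2.05 to 4.32 CPM and from 12.1 to 16.0 CPM.

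The genes whose pattern over the 8 libraries was most like that of Hsd3b6 were ranked by the root mean square difference of centred log2 CPM, among 12639 tested genes of at least 1 CPM on average. They were Art1 (0.386), Epb42 (0.414), Hfe2 (0.448), Hbb-bs (0.454) and Hbb-b1 (0.456), against a median of 1.11 over all candidates. The centring keeps the difference between the groups, on which the family was chosen. Genes higher in Isl1_hypo are therefore favoured, and the median is large for the same reason. Art1 encodes an ADP-ribosyltransferase, Epb42 a protein of the red cell membrane, Hfe2 hemojuvelin, and the last pair are adult beta-globins that share reads. Art1 stood at 2.88, 3.40, 3.48 and 6.28 CPM in CTRL and between 9.17 and 12.4 CPM in the Isl1_hypo libraries. Epb42 went from 2.12 ± 0.445 to 10.4 ± 4.04 CPM and Hfe2 from 2.61 ± 0.941 to 8.65 ± 0.525 CPM.

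The rest of the steroid pathway was taken from 5 lists. Of 92 genes, 88 were in the table and 59 passed the filter. None of the 59 had an adjusted p under 0.05 in the edgeR test, beside 0.269% of all genes, and 7 had an unadjusted p under 0.05, beside 11.9% of all genes. DESeq2 called 1 of them, beside 2.32% of all genes. This was Cyp46a1, a brain cholesterol hydroxylase (named after its values were seen), at 6.67 ± 0.705 CPM in CTRL and 3.44 ± 0.468 in Isl1_hypo. The groups did not overlap for 4 of the 59, beside 8.5% of all genes. By sign, 32 were higher and 27 lower, with a median log2 fold change of 0.01, the same as over all genes tested (0.01).

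Steroid hormone synthesis had 9 tested genes, of which 3 were higher and 6 lower. The gene with the most reads per library was Cyb5a, the cytochrome b that aids Cyp17a1, which also had the highest log2 fold change (166 ± 23.9 to 204 ± 48.0 CPM, log2 fold change 0.30, SE 0.160). The lowest was that of Por, the electron donor of microsomal P450 enzymes (85.0 ± 6.62 to 69.3 ± 14.9 CPM, −0.30, SE 0.154). Of the genes that act before the Hsd3b enzymes, Tspo, a cholesterol-binding protein of the outer mitochondrial membrane, had 128 ± 10.9 and 148 ± 33.9 CPM, and Fdx1 and Fdxr, the electron donors of Cyp11a1, had 54.2 ± 7.76 and 57.9 ± 3.78 CPM and 13.7 ± 3.65 and 12.6 ± 1.59 CPM. Star, which carries cholesterol into mitochondria, had 2.35 ± 1.13 and 2.06 ± 1.28 CPM, and Cyp11a1, the side-chain cleavage enzyme that makes pregnenolone, 0.607 ± 0.391 and 0.542 ± 0.493 CPM. Cyp17a1, which leads on to androgens, had 0.913 ± 0.246 and 0.784 ± 0.572 CPM. Cyp21a1, Cyp11b1 and Cyp11b2, the last enzymes of corticoid synthesis, were among 7 genes of the list listed at 0.

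Bile acid synthesis, the pathway of Hsd3b7, had 9 tested genes with 4 higher and 5 lower. Its gene with the most reads was Hsd17b4, of peroxisomal side-chain shortening (137 ± 10.9 and 156 ± 9.34 CPM, log2 fold change 0.18). The highest log2 fold change was that of Cyp7b1, the oxysterol hydroxylase that acts before Hsd3b7 (2.48 ± 0.416 to 3.09 ± 1.08 CPM, 0.32, SE 0.348). The lowest was that of Slc27a2, a very long chain acyl-CoA synthetase (1.27 ± 0.183 to 0.621 ± 0.871 CPM, −1.08, SE 1.11). Cyp7a1, the rate-limiting enzyme of the classical route, and Cyp8b1 were listed at 0.

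In the remaining lists no gene passed the test either. Of 10 tested steroid-converting enzymes 7 were higher, with Hsd17b10 the most abundant (163 ± 12.3 and 209 ± 56.4 CPM), Akr1c12 the highest in log2 fold change (0.248 ± 0.116 to 0.673 ± 0.264 CPM, 1.43, adjusted p = 0.407) and Hsd17b11 the lowest (−0.39). Of 20 tested cholesterol synthesis genes 12 were higher and 8 lower. Srebf2, the sterol-sensing transcription factor, was the most abundant (251 ± 39.9 and 208 ± 74.4 CPM, log2 fold change −0.27, SE 0.243). Of 11 tested receptors 6 were higher, with Nr1h2 (44.9 ± 2.71 and 49.0 ± 3.71 CPM) the most abundant. Nr1h4, the bile acid receptor FXR, had the highest log2 fold change of that list at a very low level (0.0897 ± 0.105 to 0.714 ± 0.601 CPM, 3.0, SE 1.09, adjusted p = 0.312), and Gper1 the lowest (−1.55, SE 1.19).

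**Figure D4:**
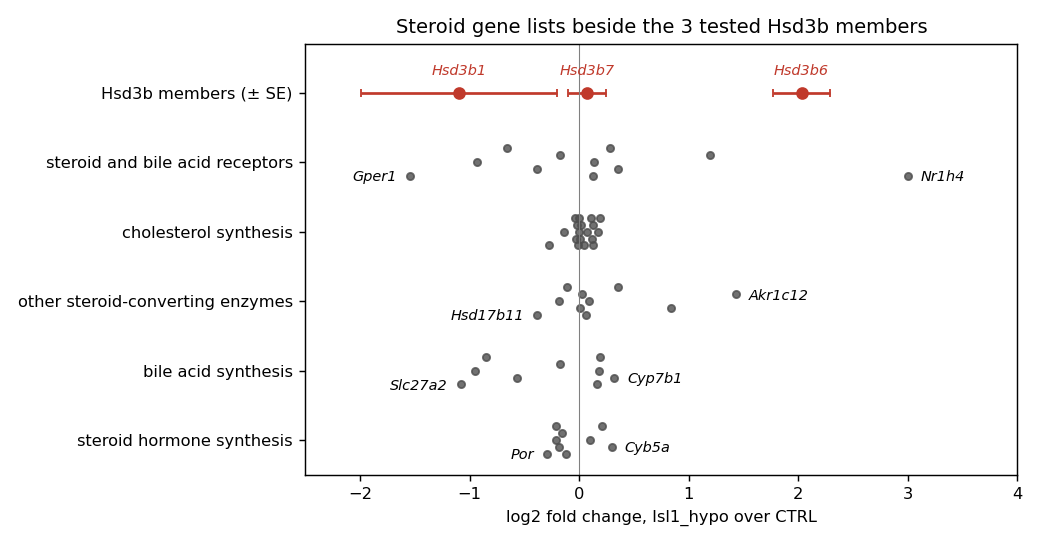
Fitted log2 fold change (Isl1_hypo over CTRL) of tested genes in the 5 steroid lists, 1 point per gene, below the 3 tested Hsd3b members with their SE. Gper1 is at −1.55, and Nr1h4 at 3.0 is the only list gene beyond Hsd3b6 at 2.03.

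Among other relatives of the family, Nsdhl, the sterol dehydrogenase of cholesterol synthesis, had 69.1 ± 7.56 and 75.0 ± 8.27 CPM, and Sdr42e1 1.36 ± 0.229 and 0.928 ± 0.129 CPM. Neither passed the test. No counts of Hsd3b8, Hsd3b9 or Gm4450 were analysed here.

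Genes around the cluster were examined next. Within 1 Mb of either end, 10 genes outside the family passed the filter and none had an adjusted p under 0.05 in the edgeR test, beside 0.269% of all genes. At an unadjusted p under 0.05 there were 4, among them Sec22b, Pde4dip and Phgdh, beside 11.9% of all genes, and DESeq2 called 1, Phgdh, beside 2.32%. Phgdh, the first enzyme of serine synthesis, lies 483 kb from Hsd3b6. It held 19.2, 19.8, 16.5 and 18.7 CPM in CTRL and 35.8, 28.9, 27.0 and 34.0 CPM in Isl1_hypo, without overlap (log2 fold change 0.76, SE 0.138, adjusted p = 0.0574). Without Isl1_hypo replicate 3 it passed the test.

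Among the other neighbours, Pde4dip, a scaffold protein of the Golgi and centrosome, had a log2 fold change of −0.36 and Fmo5, a flavin monooxygenase, one of 0.53. Zfp697 was at 0.47, and Sec22b, a vesicle transport protein with Isl1_hypo replicate 3 above the rest of its group, at 0.26. Wars2, a mitochondrial tRNA ligase, was at 0.20, Chd1l at 0.05, Prkab2 at −0.16 and Notch2 at −0.25. The nearest listed gene on the far side of Hsd3b1, Hao2, had 30 counts in all. Of the 10 tested neighbours 6 were positive, beside 7007 of 13769 genes tested. All 10 were smaller in size than Hsd3b6, which was chosen for its rise, so nothing is read from that.

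**Figure D5:**
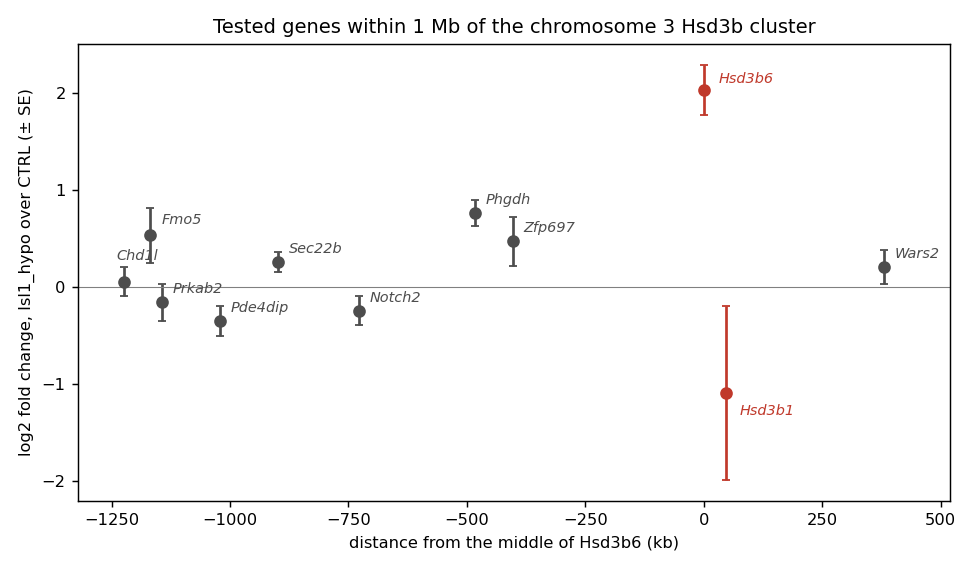
Log2 fold change (± SE, Isl1_hypo over CTRL) of tested genes within 1 Mb of the Hsd3b cluster against the distance in kb between the middle of each gene and that of Hsd3b6. Hsd3b6 is at 2.03, Hsd3b1 at −1.10, and the other genes shown lie between −0.36 (Pde4dip) and 0.76 (Phgdh).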

How the data were processed

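RNA of the OFT/RV of 8 single embryos was measured by the study on BGISEQ-500. The authors aligned reads with STAR to mm9 and counted exon reads per RefSeq transcript with HOMER, ignoring strand, and the deposited values are whole-number counts. The deposited table also holds RPKM that the authors made with edgeR, and columns of the authors' own DESeq2 comparison (mean signal, log2 fold change, Wald score, p-value), none of which were used. From the counts, the transcript with the highest mean was kept for each gene. Genes were filtered with filterByExpr, scaled by TMM and tested with edgeR 4.0.16 (quasi-likelihood F-test) with Benjamini-Hochberg adjustment, without covariates. The SE is the log2 fold change divided by the square root of F, and the 95% interval uses the fit's total degrees of freedom. The common dispersion was 0.0699, a coefficient of variation of 26.4%. Detection floors are 3 counts and cover counting error only. Embryos are the replicates, and nothing states litters or dates.

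Alternatives were RLE size factors, no scaling, DESeq2 1.42.0, other filters, the longest transcript, a replicate block, globin and Y-linked covariates and leaving out each library. Sequences came from GENCODE vM1 and NCBIM37 (mm9), with the transcript closest in length to the counted row taken per member, and identity from global alignments (Biopython 1.88). Windows were matched on both strands. The scripts were tested on simulated data. No library pair held identical values. The members, gene lists and tests were chosen with earlier results of these data known. Named genes were all members, Isl1, the called or else the genes with the highest level and the highest and lowest log2 fold change of each list, every tested neighbour, the 5 genes most like Hsd3b6, and markers that bear on a member, except a few that are not reported here.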

Additional observations from a re-analysis of the deposited data

Results flagged for a closer look

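Outliers were sought in the groups of 4 libraries with Dixon's criterion, which chance meets in about 1 of 20 groups. Among 36 groups 1 stood out, against 1.8 by chance. Sec22b in Isl1_hypo replicate 3 had 7.93 log2 CPM, with the other Isl1_hypo libraries at 7.61 to 7.65. No value of an Hsd3b member stood out.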

How the results depend on the processing

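The fitted log2 fold change of Hsd3b6 kept its sign in 18 of 18 alternatives (1.58 with the globin covariate to 2.18 without CTRL replicate 3). The sum of the 6 clustered genes (1.75), which is not Hsd3b6 alone, is 1 of these 18. That of Hsd3b1 kept its sign in 16 of 16 (−1.55 to −0.62) and could not be fitted at a minimum of 10 counts in every library. That of Hsd3b7 kept its sign in 15 of 17. The share of Hsd3b6 windows found in its relatives was 16.0% (280 of 1753) at 50 bases and 3.29% (56 of 1703) at 100 bases. The Isl1 log2 fold change was −2.29 with the replicate block (adjusted p = 0.0722) and −2.30 with the globin covariate (adjusted p = 0.519), past the threshold in neither, and it passed in the other 15 alternatives. Over all genes, 37 were called in edgeR, 319 in DESeq2, 3 with the Y-linked covariate, and 0 with the globin covariate (499 at an unadjusted p under 0.05) or the replicate block (1582). Leaving out 1 library gave 4 to 48 genes, with 8, 5 and 4 without CTRL replicates 1, 2 and 3, and 12 and 11 without Isl1_hypo replicates 2 and 4. The cause was not tested. DESeq2 called 1 steroid list gene (Cyp46a1) and 1 neighbour (Phgdh), and leaving out 1 library gave 0 to 1 neighbours. Deviations of same-numbered libraries correlated at −0.0209 to 0.0219. This cannot show whether the replicate numbers follow litters or dates, which are not stated. Depth limits Hsd3b2, Hsd3b3 and Hsd3b5, whose counts lie near or under the floor, and shared sequence limits Hsd3b4.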
